A study of Caenorhabditis elegans with 2 samples.

Results

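Both-replicate peaks are the places in the genome where a tagged C. elegans protein was found reproducibly enough to pass the authors' threshold in each of 2 animal samples on its own. The protein is the product of Y53G8AR.9, a gene annotated with a CCCH zinc finger domain. In strain RW12264 the gene carried a TY1, EGFP and 3xFLAG tag inserted by CRISPR on chromosome III, and chromatin from whole young adults at 64 hours was precipitated with an antibody against GFP and sequenced (ChIP-seq). The 2 biological replicates form 1 group with the same genotype, stage and treatment, so there is no second condition to compare. The animals had been synchronised as starved L1 larvae, and because whole animals were used, a peak does not say in which cells it arose. The deposited list called conservative, made from the comparison of both replicates, holds 2742 peaks. A peak was chosen when it overlapped by at least 1 bp a peak in the thresholded list of replicate 1 and also one in that of replicate 2, and 798 of the 2742 (29.1%) met this rule. These 798 were therefore chosen by the measured peaks of both replicates, and the strength and score of their signals are given as a description only. Of the rest, 782 (28.5%) overlapped the list of a single replicate, 432 that of replicate 1 and 350 that of replicate 2, and 1162 (42.4%) overlapped neither. With replicate 1 alone as the rule 1230 peaks would be chosen, and with replicate 2 alone 1148.

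ChIP-seq peaks mark where chromatin bound to the tagged protein, directly or through other proteins, was recovered more than its surroundings. CCCH zinc fingers are best known as RNA-binding domains, and some proteins that carry them also work in the nucleus. In C. elegans many promoters are compact, many genes lie close together, and some promoters serve a pair of genes transcribed away from each other. The irreproducible discovery rate (IDR) measures how stable the rank of a peak is from one data set to another, and the thresholded lists hold scores down to 830, an IDR of 0.0100.

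The DNA under the strongest both-replicate peaks carried 2 families of short words. The bases within 50 bp of the summit are shown here for the 6 highest ranking peaks at coding starts, on the strand of the nearest gene (ce11). Peaks were ranked by the lower of their percentile ranks in the replicates' own lists. Capitals mark any of 12 words of 7 bases, in either orientation, that recurred in the highest ranking peaks and are spelled out further on.
rpl-3, III:3867524-3867624, plus strand: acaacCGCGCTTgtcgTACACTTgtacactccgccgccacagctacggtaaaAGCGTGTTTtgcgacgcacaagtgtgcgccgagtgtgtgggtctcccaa
rpl-15, IV:654872-654972, minus strand: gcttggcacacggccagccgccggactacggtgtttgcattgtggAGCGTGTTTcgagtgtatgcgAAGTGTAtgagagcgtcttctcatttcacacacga
rpl-35, III:7854629-7854729, plus strand: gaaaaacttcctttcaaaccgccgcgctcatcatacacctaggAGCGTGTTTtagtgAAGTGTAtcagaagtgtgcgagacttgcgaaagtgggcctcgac
Y17G9B.5 and rpl-20, IV:4750017-4750117, plus strand: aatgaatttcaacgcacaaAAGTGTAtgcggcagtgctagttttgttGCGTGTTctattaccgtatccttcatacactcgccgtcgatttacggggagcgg
tasp-1, III:10759205-10759305, plus strand: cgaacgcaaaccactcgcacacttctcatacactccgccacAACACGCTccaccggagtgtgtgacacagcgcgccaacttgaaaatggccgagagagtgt
cdc-48.1, II:10563528-10563628, minus strand: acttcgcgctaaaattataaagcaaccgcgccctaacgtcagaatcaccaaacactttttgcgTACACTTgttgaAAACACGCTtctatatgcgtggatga

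The next 3 are high ranking peaks at coding starts that hold the word CTGGCGC, and they show the second family of words, often several to a window.
eelo-2, IV:17249849-17249949, plus strand: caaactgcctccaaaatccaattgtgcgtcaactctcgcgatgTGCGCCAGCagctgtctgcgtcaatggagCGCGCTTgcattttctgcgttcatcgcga
ddp-1, III:1859701-1859801, plus strand: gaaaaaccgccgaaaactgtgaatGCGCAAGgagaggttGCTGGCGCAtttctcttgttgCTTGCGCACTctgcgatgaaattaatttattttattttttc
C34C12.8, III:3460211-3460311, plus strand: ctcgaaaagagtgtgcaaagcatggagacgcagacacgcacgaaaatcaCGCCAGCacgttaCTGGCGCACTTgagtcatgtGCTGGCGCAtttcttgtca

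Their genes encode a protein with a peptidase domain (eelo-2), an import factor of the mitochondrial inner membrane (ddp-1) and a mitochondrial GrpE homologue (C34C12.8). Signals were 170 in replicate 1 and 147 in replicate 2 at eelo-2, 232 bp upstream of the start, and 166 and 177 at ddp-1, 137 bp upstream. They were 188 and 145 at C34C12.8, 145 bp upstream. Replicate 2 was the higher of the replicates at ddp-1 alone.

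The last pair are high ranking peaks more than 500 bp from every coding start, on the plus strand, shown because they hold none of the 12 words.
Peak on X: X:11094151-11094251: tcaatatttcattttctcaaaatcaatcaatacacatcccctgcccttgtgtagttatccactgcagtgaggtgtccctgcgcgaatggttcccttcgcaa
Peak on IV: IV:4727998-4728098: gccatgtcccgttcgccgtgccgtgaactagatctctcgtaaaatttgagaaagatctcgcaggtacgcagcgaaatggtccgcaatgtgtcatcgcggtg

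The signal of a peak is the value that the authors' peak caller gave it, whose scale is not stated, and the number of reads behind it is unknown, so no error from depth can be given. The 798 peaks form 749 separate regions, at most 3 peaks to a region, and were 80 to 1400 bp wide, with 473 of them (59.3%) at 320 bp. Their series-wide signal ran from 2.26 to 883 with a median of 121 and quartiles of 95.4 and 169. The median was 74.8 for peaks in the list of 1 replicate and 58.5 for peaks in neither, an order that the rule itself favours. All of the 100 strongest conservative peaks were both-replicate peaks, as were 199 of the 200 strongest, 459 of the 500 strongest and 680 of the 1000 strongest. In 4 equal groups of conservative peaks by series-wide signal, from low to high, both-replicate peaks made up 7.29%, 2.92%, 22.0% and 84.1% of the conservative peaks.

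Most peaks in the list of 1 replicate also had a ranked peak in the other replicate, below its threshold. In the 798 peaks the matched peak's score was at least 831 in replicate 1 and 830 in replicate 2, with a median of 1000 in each. Of the 350 peaks in the list of replicate 2 alone, 340 had a ranked peak in replicate 1 below the threshold, with a median score of 496 and a highest of 829. Of the 432 in the list of replicate 1 alone, 421 had a ranked peak in replicate 2, with a median score of 469 and a highest of 829. These lowest and highest scores follow from the threshold. Peaks in neither list had a ranked peak about as often, 1137 of 1162 in replicate 1 and 1140 of 1162 in replicate 2. Their median scores were 458 and 416. Just inside the overlap rule, the smallest overlap was 1 bp, at II:6968120-6968439 near eif-2Bgamma, which encodes a subunit of a translation initiation factor, followed by 6 and 10 bp. Only 12 peaks overlapped a replicate's peak by less than 50 bp, and the median of the smaller overlap was 224 bp. Just outside it, 17 peaks in the list of 1 replicate lay within 100 bp of a peak in the list of the other, the closest at a gap of 6 bp.

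Some strong conservative peaks remained outside the group. The peak 252 bp upstream of mcm-2, which encodes a subunit of the replicative helicase, had a series-wide signal of 170 and a replicate 2 signal of 92.6, and no ranked peak in replicate 1. The peak upstream of dnj-28, a J-domain chaperone gene, had signals of 107 in replicate 1 and 60.3 in replicate 2 but a replicate 2 score of 676. The peak in the coding sequence of unc-78, which encodes an actin-interacting protein, had signals of 75.5 and 71.6 but a replicate 1 score of 613. The other two of the 5 strongest were a peak in an intron of F13D12.8, with signals of 65.7 and 64.1 and a replicate 2 score of 58, and one upstream of the phosphatase gene C55B7.3. The latter had a replicate 1 signal of 82.5 at a score of 688 and no ranked peak in replicate 2. For comparison, the both-replicate peaks had median signals of 66.6 in replicate 1 and 56.7 in replicate 2.

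Replicate signals rose together across the both-replicate peaks, though ranks of single peaks often differed, and replicate 1 gave the larger number at most of them. Across the 798 peaks the log2 signals of the replicates had a Pearson r of 0.803 and the signals a Spearman rho of 0.732. This is a correlation over peaks, given as a description: 99 peaks share their pair of replicate peaks with another of the 798, leaving 747 distinct pairs. The rule asks for a thresholded peak in both replicates. With the replicate peak of the nearest summit as the match, rho was 0.696. Replicate 1 was higher at 601 peaks (75.3%) and replicate 2 at 197, with a median log2 ratio of replicate 1 to replicate 2 of 0.27 and an SD of 0.40 over peaks. Whether this offset is one of scale was not tested, because the authors' normalization is not stated. Only 6 peaks departed by more than 1 log2 unit from the median ratio. Percentile ranks in the 2 lists were within 10 points of each other at 402 peaks (50.4%) and differed by more than 50 points at 23. Of the 20 strongest peaks in each replicate's own list, 13 matched through a both-replicate peak, as did 36 of the 50 strongest and 77 of the 100 strongest.

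**Figure D1:**
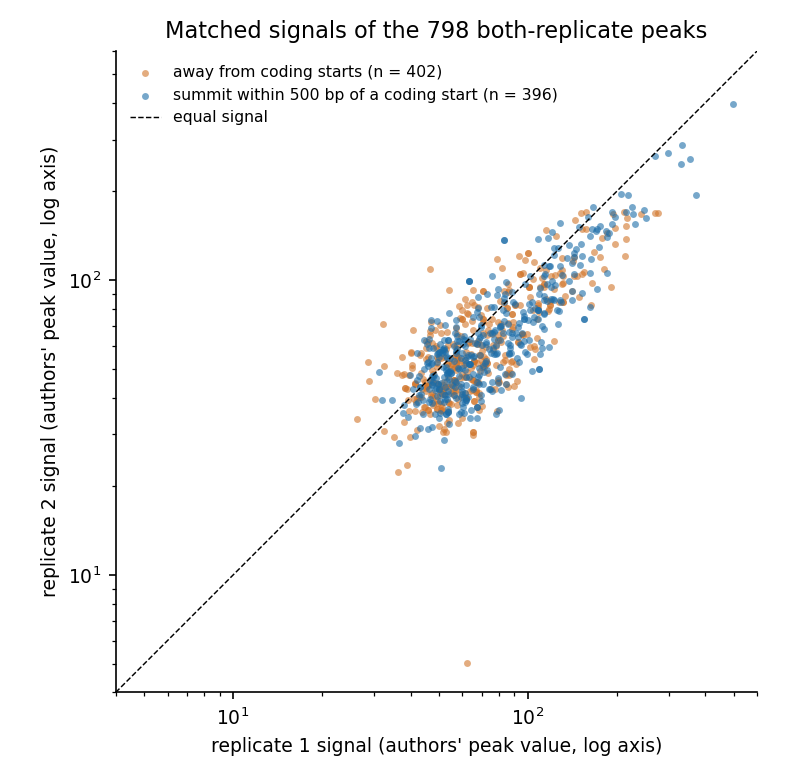
Signal in replicate 2 (vertical, log axis) against replicate 1 (horizontal, log axis), in the authors' units, for the 798 both-replicate peaks, with 396 at coding starts and 402 away from them. The points lie along and mostly below the line of equal signal, with rpl-3 at the top (496 and 397). The 1 peak far below the rest (62.2 and 5.05) had replicate summits 231 bp apart.

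The rule, which requires overlap with the same interval, bounds the distance between the replicates' summits. The distance between their summits had a median of 19.5 bp (quartiles 7.0 and 41.8 bp) and a maximum of 398 bp, and 473 peaks (59.3%) had summits within 25 bp. Peaks at coding starts had a median distance of 17.0 bp and a rho of 0.759 between signals, and peaks away from starts 23.5 bp and 0.702. When the 798 were cut into 4 equal groups by lower rank, the median distance was 30, 23.0, 19.0 and 14.0 bp from rank group 1, the lowest, to rank group 4. Summit distance thus shortened as peaks ranked higher, and 49 peaks (6.14%) had summits more than 100 bp apart.

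Of the 10 peaks at which the replicates differed most in rank, 5 in each direction, 1 lay at a coding start, and a pair of them share the same replicate peaks. Of the 23 peaks whose ranks differed by more than 50 points, 7 lay at coding starts and 16 away, beside 396 and 402 of all 798. The largest drop of rank from replicate 1 to replicate 2 was at I:6105593-6105912, beside a snoRNA gene near T27A3.8, with signals of 62.2 and 5.05. Its replicate summits lay 231 bp apart, so these signals may belong to neighbouring sites. A pair of peaks in the coding sequence of vit-2, a yolk protein gene, shared the same replicate peaks, with signals of 64.9 and 30.5. The peak at the start of sec-10, an exocyst subunit gene, had signals of 78.2 and 35.1. In the other direction, the peak in the coding sequence of R03D7.2 had signals of 32.2 in replicate 1 and 71.2 in replicate 2. Its replicate summits lay 237 bp apart, and it overlapped the peaks of 1 of the replicates by only 6 bp, so these signals may belong to neighbouring sites. The peak in the coding sequence of F25B5.5 had 46.7 and 109. All of them passed the threshold in both replicates.

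The series-wide signal came close to the sum of the replicate signals at most peaks. The ratio had a median of 0.993 and quartiles of 0.937 and 1.04. At 43 peaks (5.39%) the series-wide signal was below both replicate signals, and all 43 lay within 500 bp of a stronger conservative peak, 39 of them overlapping it. The weakest was a peak near vps-60, a gene of membrane trafficking, with a series-wide signal of 2.26 and replicate signals of 67.0 and 60.8. For these peaks the replicate signals belong to the matched replicate peak, which the stronger neighbour can share.

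Among the 15 highest ranking peaks at coding starts, 7 lay within 500 bp of the start of a ribosomal protein gene. All 396 peaks at starts together reached 469 genes, of which 19 were of the large and 11 of the small ribosomal subunit. The 15 were picked by the replicate signals that the rule used, so the count is a description only. Signals are given for replicate 1 first and replicate 2 second. At rpl-3, a gene of the large ribosomal subunit, they were 496 and 397 at a summit 280 bp upstream of the start, the strongest signal in each list. At rpl-15 they were 332 and 287, and at rpl-35 356 and 258. These 3 ribosomal protein genes had the highest lower ranks of all, and their summits lay 280, 346 and 455 bp upstream of the starts.

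A single peak lay between the starts of Y17G9B.5, whose product is annotated as a mitochondrial signalling intermediate, and rpl-20, another large subunit gene, with signals of 299 and 270. The peak at tasp-1, a gene for a homologue of the protease taspase, had 330 and 247, and that at cdc-48.1, which encodes an ATPase that extracts ubiquitinated proteins from complexes and membranes, had 269 and 264. The replicates differed by little at cdc-48.1, with summits 13 bp apart. At K08F11.1 the signals were 373 and 194, and this summit lay 426 bp downstream of the start, the only one of the 15 on that side. Between drr-2, which encodes a protein with an RNA-binding domain, and set-16, a gene of the histone methyltransferase family, they were 247 and 173.

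The other 7 of the 15 had signals of 193 to 228 in replicate 1 and 164 to 196 in replicate 2, so that they overlap each other in both. They lay at rps-1 of the small ribosomal subunit, cox-5A of cytochrome c oxidase, the ubiquitin ligase genes wwp-1 and eel-1, the splicing helicase gene mog-4, rpl-7A with set-21, and rpl-12 with lin-54. The last peak stood 31 bp upstream of rpl-12 and 362 bp upstream of lin-54, which encodes the DNA-binding subunit of the DREAM repressor complex. No conservative peak lay within 500 bp of Y53G8AR.9 itself, at III:3317725-3321245 on the minus strand, and the nearest both-replicate peak was 68476 bp away.

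Peaks far from coding starts reached nearly the same ranks. The highest was an intergenic peak at X:11094044-11094345, 1472 bp from the nearest tRNA gene and 3985 bp from the nearest coding start, with signals of 276 and 169. The next was at I:4769529-4769769, 648 bp from the start of rpa-2, a gene for a subunit of the single-strand DNA-binding complex, with 269 and 169. A peak 85 bp from a pseudogene at IV:4727942-4728139 had 212 and 171, and one at II:4047952-4048180 had 241 and 168. Replicate summits at these 4 peaks were 5 to 14 bp apart, as close as at the strongest starts.

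Coding starts held about as many both-replicate peaks as all other places together, 396 of 798 with a summit within 500 bp of a coding transcript start (49.6%, exact 95% interval 46.1% to 53.2%). Intervals are exact Clopper-Pearson intervals. They cover counting error only and take peaks as independent of each other. The share was 45.0% (41.5% to 48.6%) among peaks in the list of 1 replicate and 41.0% (38.1% to 43.9%) among peaks in neither. Part of this order goes with signal. Within the highest of the 4 signal groups the share was 53% (48.9% to 57.2%) of both-replicate peaks and 59.2% (49.1% to 68.8%) of peaks in the list of 1 replicate, and within the signal group below it was 45.0%, 44.3% and 41.2% for both, 1 and neither. In the lower signal groups, with 20 and 50 both-replicate peaks, it was 25%, 43.1% and 41.9% in group 2 and 34.0%, 38.8% and 39.6% in group 1. The order thus differed between signal groups, and no test was made.

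The side of the start followed the rank. Of the 396 peaks at starts, 306 (77.3%, interval 72.8% to 81.3%) had their summit upstream of the nearest start, with a median position of -138 bp. The share was 66.5% for peaks in the list of 1 replicate and 60.5% for peaks in neither. Within the highest signal group it was 82.7% (78.0% to 86.7%) of both-replicate peaks and 68.9% (55.7% to 80.1%) of peaks in the list of 1 replicate, and in the group below 60.3% (47.7% to 72.0%) and 66.5% (58.5% to 73.8%), in the opposite order. From rank group 1 to rank group 4, 64.0%, 63.4%, 85.1% and 93.5% of both-replicate peaks at starts were upstream. The interval of rank group 4, with 108 peaks at starts, was 87.1% to 97.4% and that of rank group 1, with 86, was 52.9% to 74.0%. Rank groups are cut by the replicate signals and were formed after values were seen, so these intervals are a description and not a test. The share was 85.0% for the 266 peaks clear of the 300 bp past any coding gene's end and 61.5% for the 130 within it.

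**Figure D2:**
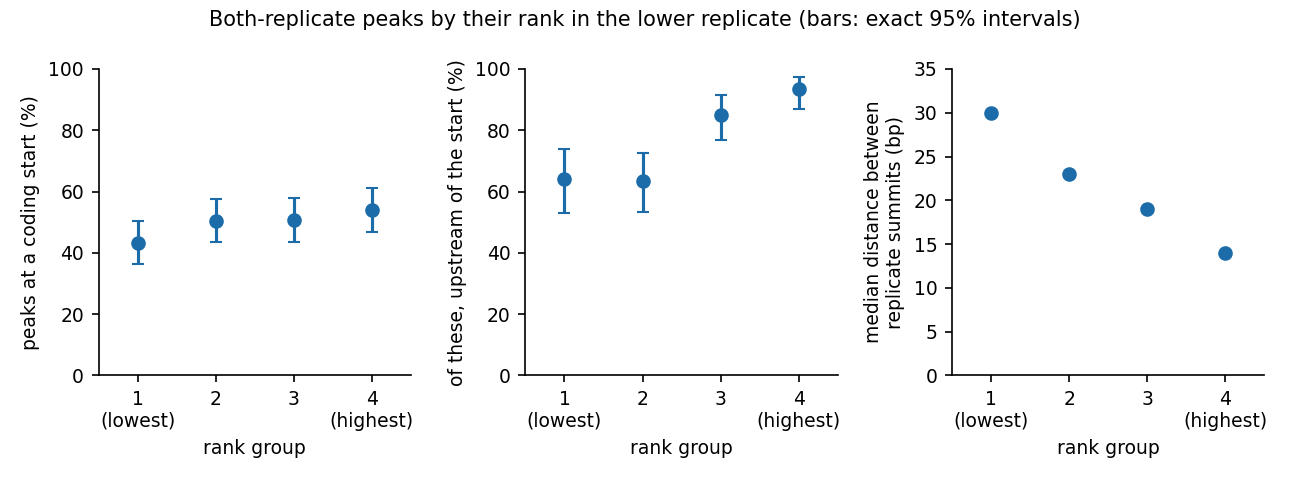
Both-replicate peaks in 4 groups of their lower percentile rank (horizontal), with 199 or 200 peaks each: the percentage at a coding start (left), the percentage of those upstream of the start (middle) and the median distance between replicate summits in bp (right); bars are exact 95% intervals. The share at starts moves from 43.2% to 54.0% with overlapping intervals, the upstream share from 64.0% to 93.5%, and the distance from 30 to 14.0 bp.

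Coding starts on both strands within 500 bp of the summit, on whichever side of it, were more frequent among higher ranking peaks. In all, 83 of the 798 (10.4%, interval 8.37% to 12.7%) had starts on both strands within 500 bp, against 8.06% of peaks in the list of 1 replicate and 4.73% of peaks in neither. From rank group 1 to rank group 4, 5.53%, 9.0%, 12.1% and 15% did. Read the other way, 83 of the 201 conservative peaks at such paired starts (41.3%, 34.4% to 48.4%) were both-replicate peaks, above the 29.1% of all conservative peaks. Besides rpl-20, set-16 and lin-54, such pairs included rps-12 with ska-3, a kinetochore gene, at 165 and 149.

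Inside genes both-replicate peaks were the less frequent kind. They were 56 of 303 conservative peaks in coding sequence (18.5%, 14.3% to 23.3%) and 79 of 351 in introns (22.5%, 18.2% to 27.2%). Over all conservative peaks the share was 29.1%. The intervals take peaks as independent, although some overlap, and are not a test. Conservative peaks in coding sequence and introns had median series-wide signals of 60.4 and 68.1, beside 74.1 at starts and 73.4 in intergenic places. The rule itself favours high signal. Of 147 peaks in 3′ untranslated regions 34 (23.1%) were both-replicate peaks, and of 600 intergenic peaks 200 (33.3%, 29.6% to 37.3%). Within 300 bp past the end of a coding gene lay 287 of the 798 (36.0%), near the 34.7% of peaks in the list of 1 replicate and above the 28.1% of peaks in neither. By chromosome the share of both-replicate peaks among conservative peaks stayed between 29.1% and 30.2% on the autosomes and was 25.3% (20.8% to 30.2%) on X, whose interval includes 29.1%.

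Conservative peaks near genes of small nuclear and nucleolar RNAs had the largest shares of both-replicate peaks among the places counted. Those near tRNA genes had a share near that of all conservative peaks. Small nucleolar RNAs guide the modification of ribosomal RNA, and many of their genes lie inside or beside genes of the translation machinery. Of 113 conservative peaks within 500 bp of a snoRNA gene, 62 (54.9%, 45.2% to 64.2%) were both-replicate peaks, and of 43 near a snRNA gene 21 (48.8%, 33.3% to 64.5%). Of 145 near a tRNA gene 34 (23.4%, 16.8% to 31.2%) were, with 29.1% inside the interval. In genes, 59 of 346 snoRNA genes (17.1%), 18 of 129 snRNA genes (14.0%), 47 of 612 tRNA genes (7.68%) and 10 of 261 miRNA genes (3.83%) had a both-replicate summit within 500 bp. Beside these stand 2.22% of 7764 genes of the ncRNA class and 2.35% of protein-coding genes, the latter counted from starts.

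The highest ranking snRNA peaks were beside genes of spliced leader RNAs. Spliced leader RNAs are joined to the 5′ ends of most C. elegans messages, and the SL2 kind serves genes inside operons. At sls-2.1 the signals were 151 in replicate 1 and 169 in replicate 2, at sls-2.4 176 and 120, and at sls-2.8 120 and 86.3. The snoRNA gene ZK994.7, in an intron of the peroxidasin gene pxn-1, had a summit at 15 bp with 197 and 150. The highest at a tRNA gene, at X:8036297-8036542, had 112 and 102. Copies of tRNA, snRNA and snoRNA genes can be near identical in sequence, and how reads matching several copies were treated is not stated.

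**Figure D3:**
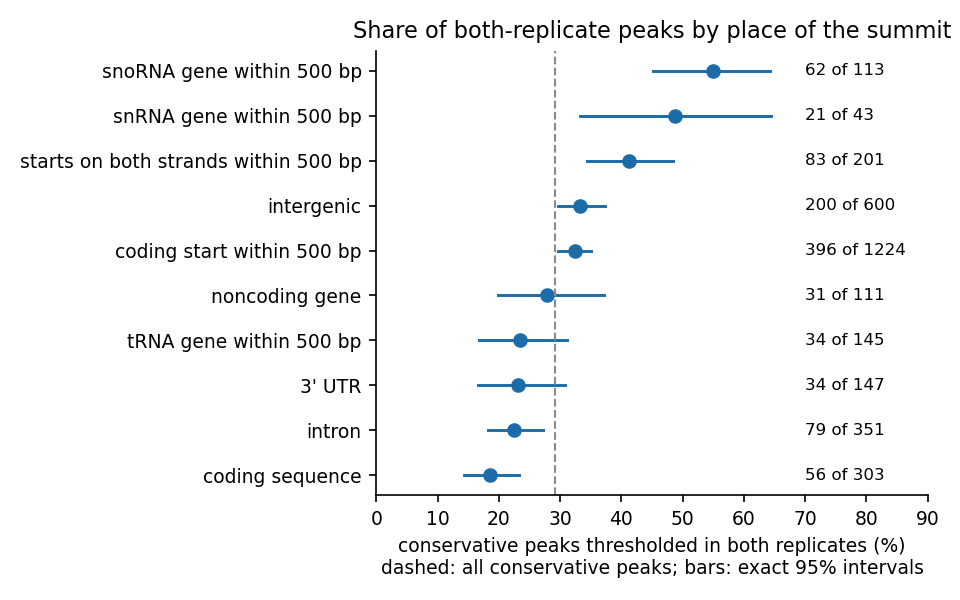
Percentage of conservative peaks that are both-replicate peaks (horizontal) by place of the summit (rows), with exact 95% intervals and the counts at the right; the dashed line is 29.1%, the share over all 2742. Peaks near snoRNA genes (54.9%), snRNA genes (48.8%) and paired starts (41.3%) lie to the right of the line, and coding sequence (18.5%) and introns (22.5%) to the left.

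A both-replicate summit lay within 500 bp of a start of 469 of the 19973 protein-coding genes (2.35%), which are 36.1% of the 1299 genes that any conservative peak reached. A window of 250 bp gave 299 genes. Each peak was counted for every gene with a start within 500 bp. The nearest start can be that of another gene, as at lin-53, tbb-1, cct-8 and rps-19. The highest shares were those of the large ribosomal subunit, the DREAM complex and the small ribosomal subunit. Of 50 large subunit genes 19 (38.0%, interval 24.7% to 52.8%) had a both-replicate peak and 30 any conservative peak, and of 32 small subunit genes 11 (34.4%, 18.6% to 53.2%) and 19. The DREAM repressor complex had 3 of 8 genes (37.5%, 8.52% to 75.5%) and 5 with any conservative peak. The lists and their members were not tested, and their shares stand beside the 2.35% and 36.1% of all genes.

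Within the ribosome the signals spread widely. After rpl-3, rpl-15, rpl-35 and rpl-20, the large subunit genes rpl-7A (197 in replicate 1 and 164 in replicate 2) and rpl-12 (193 and 171) followed, and the lowest ranking was rpl-38 with 46.1 and 63.4. Among small subunit genes rps-1 had 225 and 177, rps-19 193 and 155, rps-12 165 and 149 and rps-15 153 and 121, down to rps-22 with 54.9 and 48.6. Taking the highest ranking peak of each gene, summits lay upstream of the start at all 11 small subunit genes, between 75 and 439 bp away, and downstream at 5 of the 19 large subunit genes, from rpl-16 at 59 bp to rpl-32 at 451 bp. The peak of rps-10 with 69.9 and 60.2 is also that of rpl-24.1, so these genes are counted from the same peak.

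Other genes of translation and its products followed. Translation factors had 7 of 45 genes, with eif-3.C, a subunit gene of an initiation factor, at 175 in replicate 1 and 153 in replicate 2, the eIF5A gene iff-2 at 185 and 106 and the elongation factor gene eef-2 at 117 and 139. The translocon, BiP and CDC48 list had 10 of 34 genes, a list of proteins that carry chains into and out of the endoplasmic reticulum. It held cdc-48.1, sec-61.B and trap-3 from the same peak (143 and 124), and sec-61.G (136 and 119). Chaperones had 11 of 67 genes, led by the chaperonin subunit gene cct-8 (251 and 162), the J-domain gene dnj-13 (152 and 133), dnj-19 (118 and 112) and the HSP70 gene hsp-1 (121 and 99.4). Of 31 aminoacyl-tRNA synthetase genes 1 had such a peak (3.23%, 0.0816% to 16.7%), ears-2 with 79.0 and 44.7. Of 66 mitochondrial ribosome genes 3 did (4.55%, 0.947% to 12.7%). Both intervals include the 2.35% of all protein-coding genes.

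In energy metabolism 8 of 43 respiratory chain and ATP synthase genes had a both-replicate peak. They were led by the cytochrome oxidase genes cox-5A (219 in replicate 1 and 194 in replicate 2) and cox-5B (146 and 128), the ATP synthase gene atp-1 (138 and 132) and the cytochrome c1 gene cyc-1 (105 and 75). The list of glycolysis, gluconeogenesis and TCA cycle genes gave 7 of 47, with the phosphoenolpyruvate carboxykinase gene pck-2 higher in replicate 2 (83.0 and 137) and the glyoxylate cycle gene icl-1 at 69.0 and 64.2. The vacuolar ATPase, a proton pump, had 3 of 21 genes, all of low rank, with vha-2 at 52.7 and 49.7. The proteasome had 1 of 33 (3.03%, beside 2.35% of all protein-coding genes), rpn-3, from a peak shared with the chaperone gene hsp-110 (162 and 80.9).

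The 3 DREAM complex genes were lin-54, lin-53 and lin-9. Signals were 193 in replicate 1 and 171 in replicate 2 at lin-54, whose peak is shared with rpl-12. They were 174 and 130 at lin-53, from a peak shared with nra-2, and 108 and 138 at lin-9. Of 8 CCR4-NOT genes, which encode the main messenger RNA deadenylase, 2 had such a peak, ntl-11 (160 and 164) and ntl-2 (74.7 and 56.7). Actin and tubulin genes had 4 of 31, with tbb-1 (150 and 113), cap-2 (121 and 146) and tba-2 (138 and 99.0). Splicing factors had 6 of 51, with mog-4 (228 and 168) and rsp-2 (108 and 73.6) highest, RNA polymerase II and Mediator 2 of 54, with rpb-11 at 141 and 114, and replication and cell cycle genes 2 of 37, pcn-1 of the sliding clamp (162 and 106) and mcm-4 (60.3 and 61.0).

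A few lists were reached by conservative peaks but seldom by both-replicate peaks. Of 45 germ-line RNA regulators 13 had a conservative peak and 2 a both-replicate peak, puf-9 (83.1 in replicate 1 and 72.5 in replicate 2) and puf-3 (68.2 and 44.4) of the RNA-binding PUF family, which is 15.4% of the 13 against 36.1% over all genes. RNA polymerase II and Mediator genes had 2 of 10 and the proteasome 1 of 7. Vitellogenin genes, which encode yolk proteins, had 0 of 6 at starts and 2 with any conservative peak, although a pair of both-replicate peaks lay inside vit-2. These counts are small, and no test was made of any of them.

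Histone genes and the large families stood at the other ends. Of 81 histone genes 10 had a both-replicate peak and 11 any conservative peak, with his-37 (131 in replicate 1 and 104 in replicate 2) and the shared peak of his-67 and his-68 (74.4 and 66.0) highest, and htz-1, a variant histone gene, at 80.6 and 50.9. The 6 others of the clustered kind, such as his-60 (52.4 and 56.9), had summits 262 to 487 bp downstream of the start, inside or past these short genes, and near-identical copies make their counting uncertain. Of 1309 chemoreceptor genes 4 had a both-replicate peak, the highest being sri-5 (123 and 122), of 322 F-box genes 2, of 270 nuclear hormone receptor genes 1, nhr-47, from a peak shared with dnj-19, of 156 cuticle collagen genes 1, col-85, and of 240 C-type lectin genes 0.

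**Figure D4:**
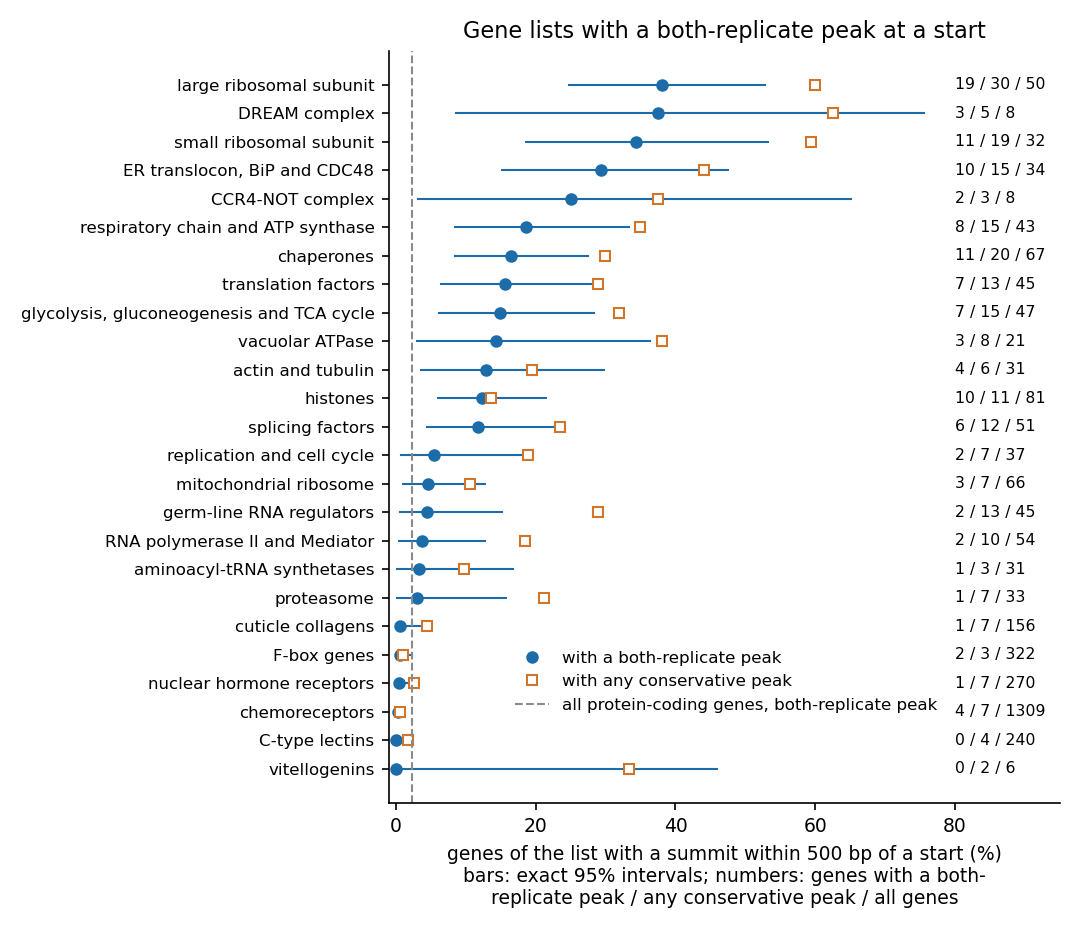
Percentage of the genes of each list (rows) with a both-replicate summit within 500 bp of a start (circles, exact 95% intervals) and with any conservative summit (squares); the dashed line is 2.35%, the share of all protein-coding genes with a both-replicate summit. The ribosomal subunits lie at 38.0% and 34.4%, and the chemoreceptor, F-box, nuclear receptor, collagen and lectin lists lie below the line.

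Summits of both-replicate peaks were richer in G and C than their flanks. The bases within 50 bp of the summit had a median GC content of 47.5%, against 36.3% in windows centred 300 bp to each side, with a median difference of 9.73 percentage points, and 609 of 798 peaks (76.3%) were higher at the summit. The median difference was 9.18 for peaks in the list of 1 replicate and 8.20 for peaks in neither, so the contrast is one of all conservative peaks. It was 11.3 at starts and 12.3 in introns, and at the 34 peaks in 3′ untranslated regions it was -0.612. GC content can also change how well DNA is recovered and sequenced, and its part in the signal was not tested.

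Among 11 named motifs searched on both strands, GC-rich elements were more frequent at the summit than in the flanks, and AT-rich ones less frequent. GCGCGC was found in 9.02% of both-replicate summit windows (interval 7.13% to 11.2%) and in 1.13% of the pairs of flank windows, against 1.26% of 29314 windows of the same length centred 100 bp upstream of coding starts. The share at the summit was 6.91% for peaks in the list of 1 replicate and 2.75% for peaks in neither. CTGCGTCT was found in 5.76%, 0.501% and 1.51% of summits, flank pairs and promoter windows, and the repeat GAGAGA in 12.7%, 7.39% and 9.21%. The E-box CACGTG was found in 4.01%, 1.5% and 2.38%, and GGTTCGA, the core of the B box inside tRNA genes, in 2.88%, 0.877% and 0.389%. The TATA box TATAAA was found in 5.89% of summits, 11.0% of flank pairs and 13.4% of promoter windows, the GATA site TGATAA in 3.88%, 8.15% and 12.1%, TTTGAA in 17.5%, 25.4% and 28.1%, and the splice acceptor TTTTCAG in 5.01%, 10.8% and 8.20%. TTCCCGCC and TGACGTCA were rare, in 1.00% and 0.752% of summits. The 2 windows of a flank pair are each shorter than a summit window and together about as long. The fall from both-replicate peaks to the other conservative peaks, seen for the first motif, did not hold for every motif. The next motif named followed it, at 4.73% of summits of peaks in the list of 1 replicate and 3.53% in neither. The repeat was at 15.2% and 13.8% of those summits, above its share in both-replicate peaks. For the E-box these shares were 4.35% and 3.01%, and for the B box core 4.22% and 2.75%. Flanks and promoter windows were not matched to the summits in GC content, which had a median of 47.5% at summits and 36.3% in flanks. The part of base composition in these contrasts was not tested. A match is a description of letters and not a binding site.

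The words marked in the sequences above came from the peaks themselves. The first family is the words of 7 bases found in at least 7 of the 20 highest ranking peaks at starts. It holds AACACGC (8 of the 20), AAACACG (7), ACACGCT (7) and AAGTGTA (7), and the first 3 overlap each other. AACACGC was in the flanks of none of those 20, at the summit of 20 of all 396 peaks at starts (5.05%), and in 0.914% of promoter windows. It was at the summit of 1.49% of the peaks away from starts and in the flanks of 1.49% of them. AAGTGTA was at the summit of 7 of the 20, of 3.54% of the 396 and of 1.57% of promoter windows. At least 1 word of the first family was at 10 of the 20 summits, a share fixed by how the words were chosen, at 59 of all 798 (7.39%) and in 4.47% of promoter windows. At starts in rank groups 3, 2 and 1, which played no part in the choice, the share was 6.93%, 7.92% and 6.98%, with no order by rank.

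The second family is the 8 words of 7 bases with the largest excess of summit over flank counts in rank group 4. Over all 798 peaks CTGGCGC was at 60 summits, TGCGCCA at 53, CGCCAGC at 50, AAGTGCG at 45, AGTGCGC at 44, CTGACGC at 44, CTTGCGC at 38 and AAGCGCG at 30, and several of them overlap each other. CTGGCGC was at the summit of 11.5%, 10.1%, 6.50% and 2.01% of peaks from rank group 4 down to rank group 1, and CGCCAGC of 11.0%, 8.04%, 4.0% and 2.01%. CTGGCGC was at 7.52% of all summits, in the flanks of 3 peaks and in 0.573% of promoter windows. In peaks that played no part in choosing the words, it was at the summit of 3.71% of those in the list of 1 replicate and in the flanks of 0.384%, and at 1.98% and 0.430% for those in neither list. The words were chosen on rank group 4, so its own share is high by choice. Flanks and promoter windows were not matched to summits in GC content for the words of either family.

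The words were also counted by the place of the peak. In rank group 4 CTGGCGC was at 22 of the 108 summits at starts (20.4%) and at 1 of the 92 away from starts (1.09%), and AGTGCGC at 20 and 1. Any of the 12 words was at 62 of those 108 (57.4%) and at 12 of those 92 (13.0%), with 5.56% and 7.61% in the flanks. This contrast in rank group 4 is partly set by the choice of words, since 4 of the 12 came from peaks at starts and the other 8 from rank group 4 itself. At starts the share was 37.6%, 25.7% and 20.9% in rank groups 3, 2 and 1, and away from starts it was 11.2%, 14.1% and 9.73%. In windows upstream of coding starts in general 7.77% held any of the 12. High ranking peaks away from starts, such as those on X and IV shown above, reached like ranks mostly without these words.

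**Figure D5:**
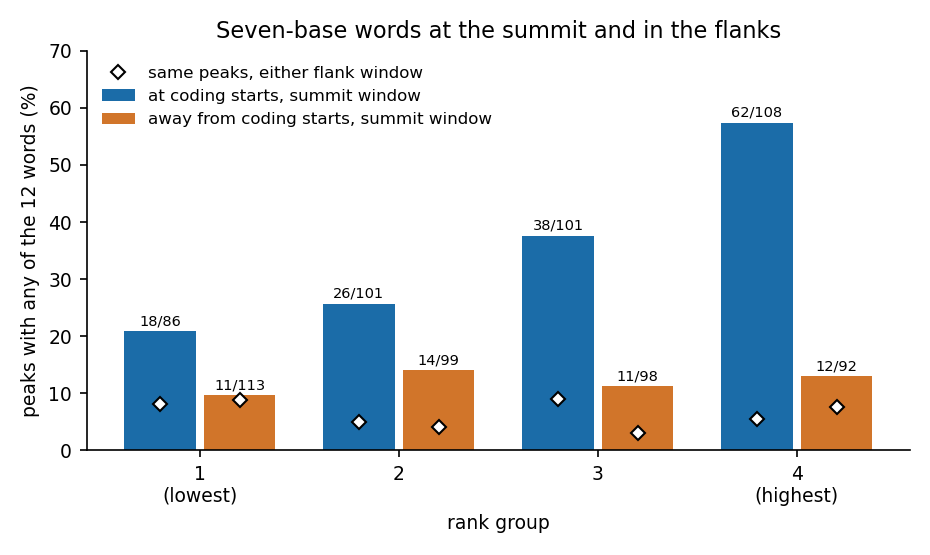
Percentage of both-replicate peaks with any of the 12 words in the summit window (bars) and in either flank window (diamonds), by group of the lower percentile rank (horizontal), for peaks at coding starts and away from them; the counts stand above the bars. At starts the bars go from 18 of 86 peaks in rank group 1 to 62 of 108 in rank group 4, and away from starts they stay between 9.73% and 14.1%.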

How the data were processed

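ChIP-seq peaks of 2 biological replicates of 1 group were analysed from the deposited lists, on ce11. Per the file headers and deposited descriptions, the authors made the lists from filtered reads with a control, and the thresholded ones with 1 more input of undescribed content. Aligner and peak caller: not given in the sources used here. Signal and IDR score, as deposited, are the authors' values per peak, and the deposited −log10 values hold the IDR. Libraries have no counts here, so depth is unknown.

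The replicate signal of a peak is that of the overlapping replicate peak with the highest signal, and its percentile rank is taken within that replicate's list. Summits were placed on Ensembl release 115 genes (WBcel235, the same assembly), with promoters first. Sequence came from the RefSeq copy of that assembly. Named peaks are the 15 at starts and 6 away from starts with the highest lower rank, the 5 with the largest rank difference each way, the 5 weakest, the 5 strongest outside the group, up to 4 genes per list and the 3 highest per noncoding class, with 1 peak for each set of overlapping peaks. Further genes named were chosen after their values were seen. The peaks, gene lists and motifs were chosen with earlier results of these data known, and the words, the side of the start and the rank groups after values were seen. No test was made. The overlap code was checked on simulated peaks. Alternatives covered overlap, list, score, merging, matching, windows and each replicate alone. Python 3.11.15, numpy 2.4.6 and scipy 1.17.1 were used.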

Additional observations from a re-analysis of the deposited data

How the results depend on the processing

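Of the 39 alternative values, 33 stayed near the reported value and 6 moved further. Near means within a factor of 1.5 for a count, or within the interval for a share, a correlation or a median. Intervals of the correlation and the medians are not given here. Only the correlation and the GC difference could change sign, and neither did. With the list of a single replicate as the rule, the number of peaks lay between 1148 and 1230, and the number of genes between 629 and 677. A promoter window of 250 bp gave 299 genes and 34.0% of peaks at starts, and one of 1000 bp gave 673 genes and 65.2%. Matching the replicate peak with the nearest summit gave a rho of 0.696, and a summit window of 100 bp to each side gave a GC difference of 6.11 points. The cause of either change was not tested. No paired analysis was possible because there is 1 group and no test. The main limits are the unknown depth and signal scale, replicate peaks shared by neighbouring peaks, and shares that follow signal strength, which the choice of peaks fixes in part.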
